A study of Mus musculus with 6 samples.

Results

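Beta-arrestins and G protein-coupled receptor kinases were examined in mouse 2-cell embryos as 5 genes, Arrb1, Arrb2, Grk4, Grk5 and Grk6, out of 48967 genes with exonic parts. They were taken by name as a family, and Arrb1 was chosen by its drop in the same comparison that is described here, so its values are a description without a test. RNA was sequenced from wild-type (wt) F1 (C57Bl/10 X CBA/H) embryos in 3 control and 3 delipidated libraries, each from 3 pooled embryos. Zygotes of both groups were cultured in fatty acid-free KSOM from 0.5 dpc to 2.0 dpc and collected on day 2. In the delipidated group, cytoplasmic lipid droplets had been moved aside by centrifugation in cytochalasin B and drawn out with a pipette through a laser-made opening in the zona pellucida. The control group is described as cultured in vitro from the zygote. The labels carry the same protocol text for both groups, and whether control zygotes went through cytochalasin B, centrifugation and zona opening was unclear from them. Loss of lipid and the handling that goes with it cannot be told apart here.

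Seven-transmembrane receptors pass signals to heterotrimeric G proteins when a ligand binds. G protein-coupled receptor kinases (GRKs) then phosphorylate the active receptor, and beta-arrestins bind the phosphorylated receptor, block further G protein coupling and link it to clathrin and the adaptor AP2 for internalization. Beta-arrestins also act as scaffolds for kinases and ubiquitin ligases. In the mouse oocyte, the constitutively active receptor Gpr3 keeps cAMP high through Gs and so holds meiosis in prophase.

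Library totals over genes came to 12164963, 16165958 and 12980787 in controls and 20059460, 16332103 and 14683741 in delipidated pools. The counts were listed by exonic part, meaning a stretch of exon that no other part overlaps, and were added up per gene. A read that spans several parts is counted in each, so gene sums exceed the number of reads. At least 1 count was present for 22855, 22437 and 20582 genes in controls and for 17091, 19408 and 20158 genes in delipidated pools. All 3 delipidated libraries thus had fewer detected genes than any control library, while the highest total was in delipidated replicate 1. The part of this in the results was not tested. All 20 genes of a list of oocyte and 2-cell embryo markers had counts in all 6 libraries. Their sum was 4937, 2897 and 4512 CPM (counts scaled to library size, with TMM factors) in controls and 3571, 3719 and 5246 CPM in delipidated pools. Among them were Btg4, an adaptor of maternal mRNA decay, and the Zscan4 genes of the 2-cell stage.

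Arrb1 encodes beta-arrestin 1 and lies on the forward strand at chr7:99535466-99606771 (GRCm38; ENSMUSG00000018909). Over all parts its counts reached 140, 244 and 216 in controls and 22, 20 and 20 in delipidated pools. This was 11.8, 14.8 and 16.4 CPM in controls and 1.09, 1.23 and 1.41 CPM in the delipidated libraries. All control libraries were high and all delipidated libraries low, with no overlap and little spread within either group. The mean was 14.3 ± 2.33 CPM (SD, n = 3) in the control group and 1.24 ± 0.163 CPM (SD, n = 3) in the delipidated group, with a log2 fold change of -3.52. It was -2.04 with the most counted part per gene and -5.63 on coding parts. Among the 5 members, Arrb1 was the only gene whose groups did not overlap in the lower direction, as its choice fixed, against 5.05% of the 16020 genes tested. In the higher direction 0 of the members had groups that did not overlap, against 3.81% of the genes tested.

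**Figure D1:**
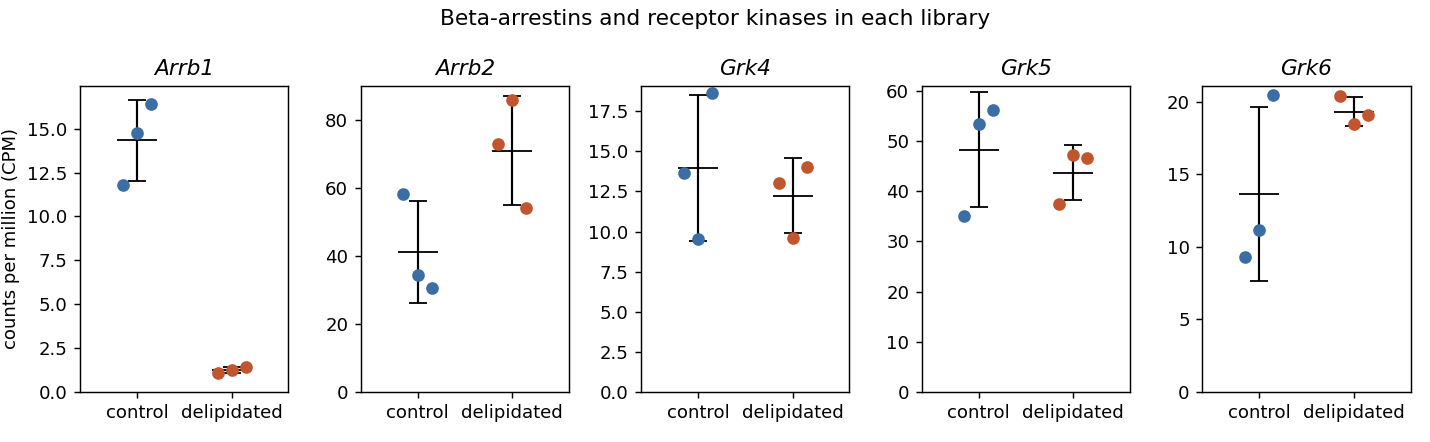
Level of each of the 5 genes in CPM (linear axes that start at 0 and differ between genes) for 3 control and 3 delipidated libraries, each point being 1 library of 3 pooled embryos, with group mean and SD as bars. Arrb1 lay between 11.8 and 16.4 CPM in controls and between 1.09 and 1.41 CPM in the delipidated libraries, whereas the groups overlapped for Arrb2, Grk4, Grk5 and Grk6.

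The exonic parts of Arrb1 showed where its counts lay. Of 37 parts, 24 lie mainly in coding sequence, 6 mainly in an untranslated region (UTR) of a coding transcript, and 7 in transcripts without coding sequence, such as retained introns. The coding parts together had 80, 182 and 141 counts in controls and 8, 0 and 2 counts in delipidated pools. The UTR parts had 45, 54 and 66 counts in controls and 14, 20 and 14 counts in delipidated pools. Coding parts therefore held 67.2% of the 600 counts of the control group and 16.1% of the 62 counts of the delipidated group, and UTR parts 27.5% and 77.4%. These shares rest on few reads in the delipidated group and, like the gene sums, are a description.

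Counts were on 19, 23 and 19 parts in controls and on 2, 2 and 6 parts in delipidated pools. In 10 of the 37 parts all 3 control libraries had counts and all 3 delipidated libraries had 0, and 9 of these parts are coding. Neighbouring parts can hold the same reads, so these parts are not independent, and several had only 1 count in a control library. The same share over the parts of all genes was not computed. A coding part of 85 bases at chr7:99592504-99592588 had 13, 16 and 19 counts in controls and 0 in each delipidated library. The preceding coding part, chr7:99591263-99591398, had 17, 3 and 19 counts in controls and 8, 0 and 0 in delipidated pools. In delipidated replicate 1 it was the only coding part with counts, and in delipidated replicate 3 the 2 coding counts were on a piece of 24 bases at chr7:99597036-99597059, next to parts of retained introns.

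Just 1 part had counts in all 3 delipidated libraries. This was part 36, chr7:99601156-99603574, which begins with 54 coding bases and continues as 3′ UTR. It had 18, 37 and 42 counts in controls and 14, 10 and 6 in delipidated pools. Scaled to library size this was 1.52, 2.24 and 3.19 CPM in controls and 0.691, 0.614 and 0.424 CPM in delipidated pools. Every delipidated library was below every control library, but these counts are part of the sum by which Arrb1 was chosen. The last part, chr7:99603575-99606771, all 3′ UTR, had 27, 11 and 24 counts in controls and 0, 10 and 4 in delipidated pools. The highest count of any 1 part, which is the smallest number of Arrb1 reads a library can hold, was 27, 37 and 42 in controls and 14, 10 and 6 in delipidated pools. The first 5 parts, up to chr7:99573064-99573190, which include the annotated start codon of the longest transcripts, had 0 counts in all 6 libraries. Counts at the 5′ end of Arrb1 were thus not detectable at this depth in either group, where a count of 0 allows up to 3 counts per library, for counting error alone.

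**Figure D2:**
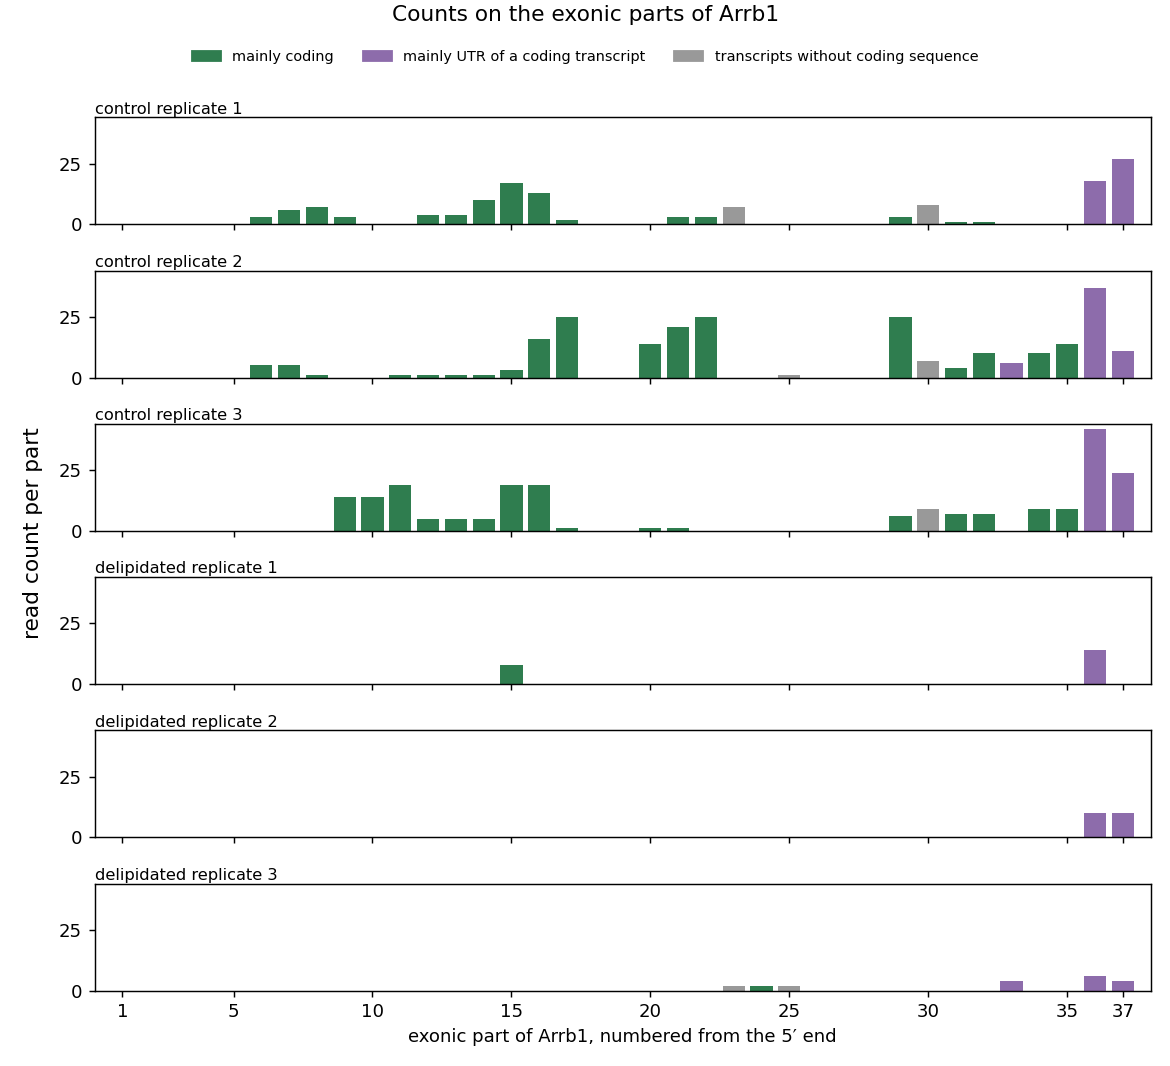
Read counts on the 37 exonic parts of Arrb1 in each library, numbered from the 5′ end, with 1 panel per library on a shared linear axis and colours for coding, UTR and noncoding parts. Control libraries had counts on 19 to 23 parts, delipidated libraries on 2 to 6, mostly in the last parts.

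Other measurements moved with Arrb1 across the libraries. Among 10099 other genes with a mean of at least 5 CPM, the 5 whose log2 CPM was most like that of Arrb1 over the 6 libraries were Vim (Pearson r = 0.99), Tceanc2 (0.99), Tet2 (0.99), Slc40a1 (0.98) and the noncoding RNA Gm14261 (0.98). The correlation mostly restates the gap between the groups, and 63 genes had an r over 0.9. Vim encodes vimentin, an intermediate filament protein of mesenchymal and other somatic cells. It had 12.8, 8.77 and 22.8 CPM in controls and 0 counts in each delipidated library. Slc40a1, the iron exporter ferroportin, had 9.20, 8.59 and 11.4 CPM in controls and 0.198, 0.369 and 0.918 CPM in the delipidated libraries. The other genes kept more of their level. Tet2, which oxidizes methylcytosine in DNA, had 20.5, 24.2 and 23.8 CPM in controls and 10.9, 10.5 and 12.8 CPM in the delipidated libraries. Tceanc2 had 38.5 ± 1.91 CPM in the control and 22.1 ± 0.382 CPM in the delipidated group, and Gm14261 8.82 ± 0.864 and 4.34 ± 0.655 CPM (SD, n = 3 each). For each of these 5 genes all control libraries lay above all delipidated libraries, which their likeness to Arrb1 largely fixed. Over all genes tested, 5.05% had groups apart in this direction.

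Markers of somatic cells were summed for each library and set beside Arrb1. All 8 stromal markers had counts in some library, and their sum was 26.0, 20.6 and 54.3 CPM in controls and 1.93, 3.99 and 6.35 CPM in the delipidated libraries. Vim, Col1a1, Col3a1 and Lum, a collagen-binding proteoglycan, had 0 counts in all 3 delipidated libraries, although Col3a1 was at 0 in control replicate 3 and Lum in control replicates 1 and 2 as well. The groups overlapped for Col1a2, Pdgfra and Sparc, and Dcn went the other way, with 0 counts in all control libraries and 1.91 CPM in delipidated replicate 3. Every control library thus had a higher stromal sum than every delipidated library, in the same direction as Arrb1, and the part of this in the Arrb1 values was not tested. In bulk samples, fewer cells of a type and less RNA per cell cannot be told apart.

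Of 15 cumulus and granulosa cell markers, 12 had counts, with Ptx3, Foxl2 and Cd44 at 0 in all 6 libraries. Per the study's methods, cumulus cells had been removed from the zygotes with hyaluronidase. The sum of these markers was 7.003, 10.3 and 113 CPM in controls and 2.12, 9.58 and 12.4 CPM in the delipidated libraries. The high value was that of control replicate 3, where Cyp11a1, the side-chain cleavage enzyme of steroid synthesis, had 49.6 CPM and Hsd3b1 46.1 CPM. Cyp11a1 had 0.337 CPM in control replicate 1 and 0 counts in the other 4 libraries. Hsd3b1 had 0.422 CPM in control replicate 1, 0.282 CPM in delipidated replicate 3 and 0 in control replicate 2 and delipidated replicates 1 and 2. Without control replicate 3 the log2 fold change of Arrb1 was -3.41, beside -3.52 with all libraries. The part of the cumulus and granulosa markers in the Arrb1 values was not tested.

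Leukocyte markers had counts for 13 of 14 genes, with S100a8 at 0, and summed to 21.4, 12.8 and 18.1 CPM in controls and 5.73, 10.3 and 16.9 CPM in the delipidated libraries. The sums of the groups overlapped. Erythroid markers had counts for 3 of 5 genes, with Hbb-bs and Hbb-bt at 0. Their sum was 4.05, 3.99 and 4.94 CPM in controls and 0, 1.47 and 0.847 CPM in the delipidated libraries, and its part in the Arrb1 values was not tested. The sums did not overlap, but the values of Alas2, an enzyme of heme synthesis, did, and the hemoglobin genes Hba-a1 and Hba-a2, at 0 in all delipidated libraries, were each at 0 in some control libraries. All 7 oviduct epithelium markers had counts and summed to 91.6, 250.0 and 124 CPM in controls and 175, 205 and 114 CPM in delipidated pools. Most of this was Epcam, which is also known from germ cells, and the groups overlapped.

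Arrb2 encodes beta-arrestin 2, the other ubiquitous beta-arrestin, at chr11:70432635-70440828 (forward strand). Its counts are listed together with a microRNA gene inside it and were assigned to Arrb2 by exon overlap. It had 58.3, 34.5 and 30.7 CPM in controls and 73.0, 85.9 and 54.0 CPM in the delipidated libraries. Delipidated replicates 1 and 2 were higher than every control library, but delipidated replicate 3 lay below control replicate 1, so the groups overlapped. The log2 fold change was 0.79 (standard error 0.33), and the Benjamini-Hochberg adjusted p-value of edgeR's quasi-likelihood test over all genes was 1.00. With the most counted part per gene the log2 value was 0.35 (standard error 0.56). Arrb2 therefore did not pass the test, and its direction was opposite to that of Arrb1. Its counts covered 34, 34 and 31 of 42 parts in controls and 25, 34 and 34 in delipidated pools, and coding parts held 89.7% of the control and 87.9% of the delipidated counts. The share on coding parts of Arrb2 thus differed little between the groups. That of Arrb1 was lower in the delipidated group, but it rested there on 10 of 62 counts, with 8 of the 10 in delipidated replicate 1.

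Across all 16020 genes, edgeR's quasi-likelihood test called 0 genes (0%), where a call needed adjusted p under 0.05 together with a log2 fold change beyond 1. Before adjustment, p was under 0.05 for 184 genes with higher and 279 genes with lower values in delipidated embryos. DESeq2 without a count filter beforehand called 9 higher and 40 lower. Among the 4 members other than Arrb1, 1 gene, Arrb2, had an unadjusted p-value under 0.05 with a higher value, against 1.15% of the genes tested. With a lower value there were 0 of the 4, against 1.74%. All 5 members passed the filter on low counts.

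Grk5 and Grk6 belong with Grk4 to the GRK4 subfamily, whose kinases are held at the membrane without G protein beta-gamma subunits. Grk5, a broadly expressed kinase at chr19:60889749-61095968, had 35.1, 53.5 and 56.2 CPM in controls and 37.4, 47.2 and 46.5 CPM in the delipidated libraries. Control replicate 1 was lowest and the groups overlapped fully, with a log2 fold change of -0.14, a standard error of 0.31 and an adjusted p-value of 1.00 from edgeR. All 16 of its parts had counts in every library, as for no other of the 5 genes. Grk6, a kinase known from chemokine and dopamine receptor desensitization, lies at chr13:55445072-55460927. It had 9.28, 11.1 and 20.4 CPM in controls and 20.4, 18.4 and 19.1 CPM in the delipidated libraries. Control replicates 1 and 2 were low, whereas control replicate 3 was as high as the delipidated libraries. The log2 fold change was 0.50 (standard error 0.44), edgeR's adjusted p-value was 1.00, and the log2 value was 0.92 without control replicate 3. With the part of each gene that had the most counts in place of the sum, its direction turned to -0.18.

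Grk4, a kinase known for high expression in testis, lies at chr5:34660379-34755305. It had 13.7, 9.55 and 18.6 CPM in controls and 13.0, 9.58 and 14.0 CPM in the delipidated libraries. The delipidated values lay within the range of the control values, with a log2 fold change of -0.19, a standard error of 0.46 and an adjusted p-value of 1.00 from edgeR. Its counts leaned to the 5′ end, with 48, 66 and 90 counts in controls and 63, 42 and 75 in delipidated pools on part 1, chr5:34660379-34660974, a 5′ UTR part. Coding parts held 50.8% of its control and 68.7% of its delipidated counts. On coding parts alone the log2 fold change turned to 0.20, and without control replicate 3 to 0.074, so its direction was not stable.

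Levels between the genes were compared per kilobase of coding parts, where genes made of many short parts count reads more often. In the control group Arrb2 had 28.9 ± 11.4, Grk5 26.7 ± 5.41, Grk6 8.19 ± 3.87, Arrb1 6.68 ± 1.67 and Grk4 4.17 ± 1.40 CPM per kilobase (SD, n = 3 each). Neighbours in this order overlapped between libraries, except that every library of Grk5 lay above every library of Grk6. In the delipidated group Arrb2 had 48.2 ± 12.1, Grk5 24.0 ± 2.58, Grk6 10.8 ± 0.529, Grk4 4.82 ± 0.722 and Arrb1 0.126 ± 0.141 CPM per kilobase (SD, n = 3 each). No neighbours overlapped in that group, and Arrb1 had moved from next to Grk6 and Grk4 to the last place. Arrb2 and Grk5 were the leading beta-arrestin and kinase of the 5 genes in both groups.

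The remaining 5 genes of the arrestin and GRK families were Grk2 and Grk3, which bind G protein beta-gamma subunits, the rhodopsin kinase Grk1 and the visual arrestins Sag and Arr3. Grk2 had 18.5, 69.0 and 44.6 CPM in controls and 43.4, 41.2 and 35.5 CPM in the delipidated libraries. The delipidated values lay between the control values, with a log2 fold change of -0.14, a standard error of 0.43 and an adjusted p-value of 1.00 from edgeR. Its direction turned to 0.34 without control replicate 2, to 0.034 with the replicate number as a block and to 0.32 with the most counted part. Per kilobase of coding parts Grk2 had 20.5 ± 11.6 CPM in the control and 18.5 ± 1.82 CPM in the delipidated group (SD, n = 3 each), next below Grk5. Sag, the rod arrestin, ranged from 0.938 to 5.26 CPM and Grk1 from 0 to 1.47 CPM over the 6 libraries. Arr3, the cone arrestin, ranged from 1.77 to 10.6 CPM in controls and from 1.11 to 4.94 CPM in the delipidated libraries. Grk3 did not pass the filter, with 0, 7 and 88 counts in controls and 0, 0 and 1 in delipidated pools, so that its counts came almost wholly from control replicate 3. The median log2 fold change over the 4 genes tested was -0.73, beside -0.0007 over all genes tested. With single libraries left out this median ranged from -1.16 (without control replicate 1) to -0.15 (without control replicate 3). None of the 4 (0 genes) had an unadjusted p-value under 0.05.

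The receptors and G proteins upstream of the family were described by lists. Of 56 seven-transmembrane receptors, 47 had counts and 20 were tested, with 0 under 0.05 before adjustment in either direction and a median log2 fold change of -0.14. The median turned to 0.025 without control replicate 2 and to 0.033 without delipidated replicate 3. Gpr3 had 45.7, 50.6 and 42.6 CPM in controls and 36.4, 41.1 and 48.1 CPM in the delipidated libraries, with overlap. Fzd7, a Wnt receptor, had 45.9 ± 5.14 CPM in the control and 42.8 ± 7.48 CPM in the delipidated group (SD, n = 3 each). Of 16 G protein alpha subunits 15 were tested, with a median of 0.25, and 13.3% of them had a negative fold change against 50.0% of all genes tested. This median was 0.057 without control replicate 1, 0.086 without delipidated replicate 2 and 0.46 without delipidated replicate 1. In this list 1 of the 15 genes had an unadjusted p-value under 0.05, with a higher value, beside 1.15% of all genes tested. It was Gnat1, the rod transducin subunit, with 2.62, 3.02 and 2.36 CPM in controls and 4.64, 15.4 and 5.15 CPM in the delipidated libraries. The groups did not overlap, but delipidated replicate 2 stood above the others. The log2 fold change was 1.65 (standard error 0.72), edgeR's adjusted p-value was 1.00, and the log2 value was 0.87 without that library.

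Of 17 G protein beta and gamma subunits 9 were tested, and the median log2 fold change was 0.21, with 0 genes at an unadjusted p-value under 0.05. The median was 0.12 without control replicate 3, 0.12 without delipidated replicate 3, 0.31 without control replicate 1, 0.32 with the most counted part and 0.41 on coding parts. Gnb1, the beta subunit with the highest mean, had 148 ± 31.5 CPM in the control and 171 ± 15.02 CPM in the delipidated group (SD, n = 3 each), and the gamma subunit Gng12 had 141 ± 23.6 and 157 ± 20.1 CPM (SD, n = 3 each). Of 21 RGS genes, whose proteins speed up GTP hydrolysis by alpha subunits, 11 were tested, with a median of 0.073 and 0 genes at that threshold. The median turned to -0.26 and -0.18 without delipidated replicates 2 and 3. Rgs17 had 48.2 ± 19.5 and 50.6 ± 14.2 CPM, and Rgs2 17.4 ± 3.99 and 21.4 ± 9.45 CPM in the control and delipidated groups (SD, n = 3 each). Among 26 cAMP enzymes 22 were tested, with a median of 0.15 and 0 genes at that threshold. The median was 0.060 without control replicate 3, and 0.017 and 0.021 without delipidated replicates 2 and 3. Prkar2a, a regulatory subunit of protein kinase A, had 161 ± 18.7 and 176 ± 43.6 CPM, and the phosphodiesterase Pde3b 91.8 ± 18.1 and 95.8 ± 6.48 CPM (SD, n = 3 each). For each of these 6 genes the groups overlapped, and the difference between means was smaller than the SD of at least 1 group.

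Downstream of the arrestins, all 22 genes for receptor endocytosis and recycling were tested, and the median log2 fold change was 0.038, with 0 genes at an unadjusted p-value under 0.05. The median turned to -0.043 without delipidated replicate 3. Cltc, the clathrin heavy chain that beta-arrestins bind, had 480, 452 and 431 CPM in controls and 423, 381 and 413 CPM in delipidated pools. The delipidated libraries were all slightly below the control libraries, with a log2 fold change of -0.16, a standard error of 0.17 and an adjusted p-value of 1.00 from edgeR. Dnm2, the dynamin that releases coated vesicles, had 208 ± 8.78 CPM in the control and 184 ± 42.4 CPM in the delipidated group (SD, n = 3 each). Groups that did not overlap were found for 3 of the 22 genes in the lower and 1 in the higher direction, beside 5.05% and 3.81% of all genes tested.

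All 18 arrestin-bound kinases and ubiquitin enzymes, which beta-arrestins bring to the receptor, were tested. Their median log2 fold change was -0.10, and 61.1% of them had a negative fold change against 50.0% of all genes tested. The median turned to 0.033 and 0.053 without control replicates 1 and 2, and to 0.081 with the most counted part.

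The alpha-arrestins, a related family of adaptors for ubiquitin ligases, had 5 of 6 genes tested, a median log2 fold change of 0.0062 whose sign turned with total counts in place of TMM, without control replicate 2, with the higher count filter and on coding parts, and 0 genes at an unadjusted p-value under 0.05. Arrdc1 had 69.8 ± 20.1 CPM in the control and 105 ± 34.5 CPM in the delipidated group, and Txnip, which also binds thioredoxin, 58.8 ± 16.2 and 49.4 ± 19.8 CPM (SD, n = 3 each). The groups overlapped for both genes. Under each of the 3 scalings, Arrb1, Grk4 and Grk5 kept a negative and Arrb2 and Grk6 a positive fold change. The sign of Arrb1 was largely fixed by its choice.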

How the data were processed

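RNA was measured in 6 libraries, 3 control and 3 delipidated, each from 3 embryos. The authors deposited raw counts per exonic part; per the labels and methods, reads were processed with bcl2fastq 2.20, Trimmomatic 0.36 and STAR 2.5.2b on mm10 and counted with featureCounts. Counting per part is seen in the values and is not described. Parts were added up per gene; of 33309 parts under joined identifiers, 27968 overlapped exons of 1 gene and were assigned to it, and the others, 2.49% to 2.57% of counts, were left out. None of the members' parts overlapped a part on the opposite strand. Parts were classed by GENCODE annotation of GRCm38 as coding where most of their bases are coding.

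The comparison used edgeR 4.0.16 (R 4.3.3): filterByExpr (minimum count 10, minimum total 15), TMM, quasi-likelihood test, Benjamini-Hochberg adjustment, and a call at an adjusted p-value under 0.05 and log2 fold change beyond 1. CPM were computed with TMM-scaled library sizes. DESeq2 1.42.0 was an alternative. The test was tried on simulated counts with 200 changed genes. Standard errors were derived from the F statistic. The libraries are labelled as independent pools of embryos. Per the study's methods, embryos of several females were combined, allocated to the groups at random and then divided into the libraries. The SD between libraries thus describes the spread among pools from a shared collection. A comparison of 3 against 3 allows no exact two-sided permutation p-value under 0.1. Tables were made with Python 3.11.15.

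Genes named are the members, from each list the genes with an unadjusted p-value under 0.05 or otherwise the 2 with the highest mean CPM, the 5 genes most like Arrb1 (Pearson correlation of log2 CPM with a prior count of 2), and cell type markers. Grk3, the parts described and single markers apart from those with the highest mean of a list were named with their values in view. A gene that this rule takes is not reported here. The members and lists were chosen with earlier results of these data known.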

Additional observations from a re-analysis of the deposited data

How the results depend on the processing

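The log2 fold change of Arrb1 was negative in all 15 alternatives, a sign largely fixed by its choice for the drop in these same libraries. It ranged from -3.63 to -3.41 when each library was left out in turn, and was -2.04 with the most counted part per gene and -5.63 on coding parts, a setting chosen after seeing the data, in which 10 counts remained in the delipidated group. Arrb2 stayed positive in 14 alternatives, from 0.35 with the most counted part to 1.13 without control replicate 1, and Grk5 negative in 15, from -0.32 to -0.022. Grk4 turned to 0.20 on coding parts and ranged from -0.40 to 0.074 with a library left out, and Grk6 turned to -0.18 with the most counted part; the cause was not tested. Adjusted p-values of these 4 genes ranged from 0.558, for Arrb2 with DESeq2, to 1.00. Without joined identifiers Arrb2 had no value. Medians of the receptor, RGS, endocytosis, arrestin-bound kinase and alpha-arrestin lists changed sign when single libraries were left out.

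The number of genes called by edgeR was 0 higher and 0 lower, with 184 and 279 genes at an unadjusted p-value under 0.05. Without a count filter beforehand, DESeq2 called 9 higher and 40 lower and edgeR 5 higher and 25 lower, where genes with few counts enter the fit. DESeq2 still applied its default filtering on mean count and its outlier cutoff to the results. With a library left out, 0 genes were called in either direction, beside 155 to 300 genes higher and 219 to 693 lower at an unadjusted p-value under 0.05.

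With the replicate number as a replicate block, 0 genes were called higher and 0 lower, and the log2 fold change was -3.51 for Arrb1, 0.82 for Arrb2, -0.16 for Grk4, -0.12 for Grk5 and 0.59 for Grk6. Deviations of libraries with the same number correlated by -0.084, 0.07 and 0.043, and not every library correlated best with its own number. With 3 libraries per group, these values cannot show whether libraries of the same number were handled together.

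Sums over parts count reads several times and look more precise than they are. The 20 to 22 counts of Arrb1 in a delipidated library come from at least 14, 10 and 6 reads, so shares between its parts have low precision there. Groups of 3 libraries were not tested for outliers.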
